A study of Homo sapiens with 12 samples.

Results

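Transcripts of 10 mitotic and spindle checkpoint kinases, CDK1, PLK1, PLK4, AURKA, AURKB, BUB1, BUB1B, TTK, NEK2 and MASTL, were followed in 2 human prostate cancer cell lines treated with palbociclib or with its solvent DMSO. The 10 genes were chosen by name from the 56747 genes that the count tables of both lines share by Ensembl identifier. Palbociclib blocks the CDK4 and CDK6 kinases, which free E2F transcription factors by phosphorylating RB1, and the series asked which effects of this inhibition depend on RB1. The 4 groups were DU145 (labelled Du145) with palbociclib, DU145 with DMSO, C4-2 (labelled C42) with palbociclib and C4-2 with DMSO, with 3 libraries each in the labels. DU145 derives from a brain metastasis and is known to lack functional RB1, and C4-2 was derived from LNCaP, has RB1 and grows without androgen. The labels name no transgene or knockout, and neither how much palbociclib was given nor for how long is stated in the sources used here. Since no label ties the libraries of a group to separate cultures, the p-values rest on a spread between libraries that may be technical only.

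The column of C4-2 DMSO replicate 3 held only 0 and was left out, which left 11 libraries. Totals ran from 16108999 to 16674393 counts per DU145 library and from 2608851 to 3489659 per C4-2 library. The libraries labelled C4-2 held 0 counts of KLK3, KLK2, ACP3 and FOLH1, luminal prostate genes that LNCaP derivatives express, in all 5 libraries, and FN1 (fibronectin) averaged 18900 CPM with palbociclib and 20900 CPM with DMSO there (CPM, counts scaled to a common library total). These defining markers go against the C4-2 label, so "C4-2" below means the libraries so labelled. In DU145, KLK3, KLK2 and FOLH1 were at 0 as well. The 10 luminal markers summed to 1690.0 to 1790.0 CPM with palbociclib and 2330.0 to 2530.0 CPM with DMSO in DU145, and to 442 to 482 CPM with palbociclib and 1080.0 to 1100.0 CPM with DMSO in C4-2, with 4 of the 10 at 0 in each group. The 9 mesenchymal markers summed to 337 to 351 CPM with palbociclib and 389 to 405 CPM with DMSO in DU145, and to 22100.0 to 22400.0 CPM with palbociclib and 24600.0 CPM in both DMSO libraries of C4-2. The 7 leukocyte markers summed to at most 8.15 CPM in any library. The part of these markers in the results below was not tested.

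The kinases act in sequence through mitosis. CDK1 with cyclin B drives entry, MASTL holds back the phosphatase that opposes CDK1, and AURKA and PLK1 switch CDK1 on and build the spindle poles. PLK4 starts the duplication of centrioles and NEK2 separates the centrosomes. AURKB corrects faulty attachments of chromosomes to the spindle as the enzyme of the chromosomal passenger complex, and TTK, BUB1 and the pseudokinase BUB1B hold cells before anaphase through the spindle checkpoint. Transcription of such genes is periodic in dividing cells. In quiescent cells it is held low by the DREAM complex, through promoter elements known as CHR (TTTGAA or the variant TTTAAA), and CCAAT boxes bound by NF-Y carry much of its activation later in the cycle.

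Because all 10 transcripts fell together in C4-2, promoters of 4 members are printed that differ in these letters. Each run is the 250 bases before a start of transcription in RefSeq (GRCh38.p14), 5′ to 3′ on the strand of the gene, and capitals mark TTTGAA or CCAAT read on either strand (as TTCAAA or ATTGG on the opposite one).
CDK1, chr10:60778228-60778477, plus strand: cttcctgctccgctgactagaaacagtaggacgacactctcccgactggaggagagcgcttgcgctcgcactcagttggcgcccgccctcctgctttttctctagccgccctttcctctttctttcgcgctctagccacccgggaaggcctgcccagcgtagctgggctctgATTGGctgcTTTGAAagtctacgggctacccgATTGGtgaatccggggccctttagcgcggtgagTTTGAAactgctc
PLK1, chr16:23678639-23678888, plus strand: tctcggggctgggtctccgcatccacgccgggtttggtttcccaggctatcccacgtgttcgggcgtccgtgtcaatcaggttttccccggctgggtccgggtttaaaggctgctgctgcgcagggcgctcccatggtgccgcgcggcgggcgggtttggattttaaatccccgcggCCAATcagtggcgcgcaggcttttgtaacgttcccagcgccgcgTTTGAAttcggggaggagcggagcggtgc
BUB1B, chr15:40160819-40161068, plus strand: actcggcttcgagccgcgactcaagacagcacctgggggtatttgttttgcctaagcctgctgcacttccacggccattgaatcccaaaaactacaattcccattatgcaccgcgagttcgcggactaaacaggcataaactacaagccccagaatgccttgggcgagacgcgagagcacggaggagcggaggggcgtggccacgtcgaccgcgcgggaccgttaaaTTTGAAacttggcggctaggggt
NEK2, chr1:211675622-211675871, minus strand: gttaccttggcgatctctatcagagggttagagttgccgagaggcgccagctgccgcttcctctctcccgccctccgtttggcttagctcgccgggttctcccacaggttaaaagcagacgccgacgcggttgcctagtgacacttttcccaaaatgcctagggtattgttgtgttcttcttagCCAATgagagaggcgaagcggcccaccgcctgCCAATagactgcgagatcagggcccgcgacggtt
In this CDK1 promoter, TTTGAA began 69 and 13 bases before the start, positions -69 and -13, and CCAAT read on the opposite strand began at -78 and -46. PLK1 held CCAAT at -73, TTTGAA at -29 and the variant TTTAAA, not capitalised, at -148 and -88. BUB1B held TTTGAA at -23 and no CCAAT, and NEK2 held CCAAT at -66 and -34 and no TTTGAA.

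RefSeq promoters were in the table used for 8 of the 10 members, and the exceptions were AURKA and TTK. In windows from 250 bases before to 50 bases after a start, on both strands, TTTGAA was in at least 1 window of 5 of the 8 members, namely CDK1, PLK1, PLK4, BUB1B and MASTL. Of the 27305 genes with such a window, 18.2% held it, and of the 35116 windows 15.2%. CCAAT was found in 6 of the 8, CDK1, PLK1, PLK4, AURKB, BUB1 and NEK2, against 39.7% of genes and 34.6% of windows. TTTAAA was found in PLK1 and in CDK1, there in a window other than the printed one, against 14.5% of genes and 12.2% of windows. The E2F letters TTTNNCGC, with C or G at each N, were found in CDK1, against 3.99% of genes and 3.31% of windows. In the printed CDK1 run they begin at -128 and are not capitalised. None of the 4 motifs contains another, and a match of letters describes the window and does not show a bound site.

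The 10 kinases were compared between palbociclib and DMSO in each line with edgeR's quasi-likelihood test, with p-values adjusted by Benjamini-Hochberg over all tested genes and called below 0.05. In DU145, 6 of the 10 rose with palbociclib, AURKA, NEK2, PLK1, BUB1B, CDK1 and AURKB, and none fell, whereas 28.8% of the 15361 tested genes were called higher and 29.2% lower, 58.1% in all. In C4-2, 10 of 10 fell and none rose, whereas 26.6% of the 11943 tested genes were called lower and 25.2% higher, 51.8% in all. The median log2 fold change of the 10 was 0.28 in DU145 and -1.32 in C4-2, beside -0.00737 and 0.0015 over all tested genes. The count of 0 falling in DU145 was also 0 at an unadjusted edgeR p below 0.05 and with DESeq2, which called the same number higher (6). All 10 members passed the filter on low counts in every fit, and their lowest count in a library was 47. In bulk RNA, fewer cells in mitosis and less of each transcript per mitotic cell cannot be told apart.

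The counts of the 10 together show the contrast. They summed to 1290.0, 1280.0 and 1160.0 CPM in DU145 with palbociclib, against 1010.0, 1040.0 and 969 CPM in DU145 with DMSO. Every palbociclib library stood above every DMSO library there. In C4-2 they summed to 540.0, 552 and 528 CPM with palbociclib, against 1280.0 and 1310.0 CPM with DMSO, so that every palbociclib library stood below both DMSO libraries. The plot of CPM by library gives the values member by member.

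**Figure D1:**
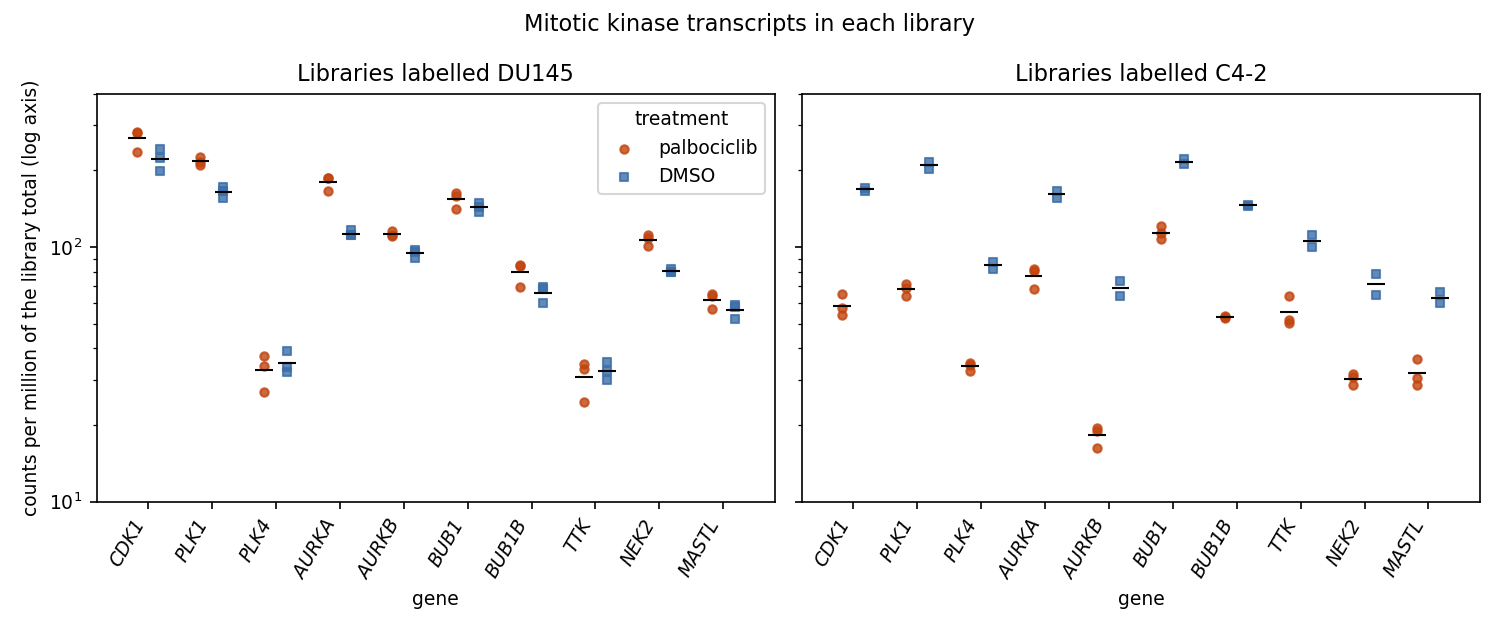
CPM of each of the 10 kinases (log axis) in each library, DU145 on the left and C4-2 on the right, with palbociclib left of DMSO for each gene; points are libraries and bars are group means. In C4-2 the palbociclib points lie below the DMSO points for 10 of 10 genes, and in DU145 they lie above them without overlap for PLK1, AURKA, AURKB, BUB1B and NEK2.

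Of the 4 kinases of mitotic entry, CDK1, PLK1 and AURKA rose in DU145, MASTL did not pass there, and all 4 fell in C4-2. CDK1 (ENSG00000170312, chr10:60778331-60794852, hg38, plus strand) is the cyclin-dependent kinase that starts mitosis. It had 283, 280.0 and 236 CPM in DU145 with palbociclib, against 224, 243 and 198 CPM with DMSO. The ranges overlapped, since palbociclib replicate 3 lay below DMSO replicate 2, and the log2 fold change was 0.29 (SE 0.08, edgeR adjusted p = 0.0047). In C4-2 it had 57.4, 65.2 and 53.9 CPM with palbociclib, against 165 and 171 CPM with DMSO. The C4-2 groups lay far apart, with a log2 fold change of -1.57 (SE 0.08, edgeR adjusted p = 4.18e-21), or a level 2.97-fold lower.

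PLK1 (ENSG00000166851, chr16:23677656-23690367, plus strand), a polo-like kinase that acts on centrosomes, kinetochores and the CDC25 phosphatases, had 210.0, 215 and 225 CPM in DU145 with palbociclib, against 165, 156 and 172 CPM with DMSO. The groups did not overlap, and the log2 fold change was 0.42 (SE 0.07, edgeR adjusted p = 3.15e-05). In C4-2 it had 68.9, 64.0 and 71.3 CPM with palbociclib, against 203 and 216 CPM with DMSO. That is a log2 fold change of -1.66 (SE 0.07, edgeR adjusted p = 1.71e-23), 3.15-fold lower.

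AURKA (ENSG00000087586, chr20:56369389-56392337, minus strand), the Aurora kinase of the spindle poles, rose more in DU145 than any other member. It had 187, 187 and 166 CPM in DU145 with palbociclib, against 111, 116 and 111 CPM with DMSO. The lowest palbociclib library stood well above the highest DMSO library, and the level was 1.62-fold higher (log2 0.70, SE 0.07, edgeR adjusted p = 1.23e-07), at percentile 88.5 of all tested genes. In C4-2 AURKA had 80.3, 81.6 and 68.4 CPM with palbociclib, against 156 and 166 CPM with DMSO, a log2 fold change of -1.12 (SE 0.08, edgeR adjusted p = 1.17e-16).

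MASTL (ENSG00000120539, chr10:27154824-27186924, plus strand), known as Greatwall, had 64.3, 65.1 and 56.9 CPM in DU145 with palbociclib, against 57.9, 59.0 and 52.3 CPM with DMSO. These ranges overlapped and the log2 fold change of 0.16 did not pass (SE 0.08, edgeR adjusted p = 0.081). In C4-2 it had 28.7, 36.4 and 30.5 CPM with palbociclib, against 60.2 and 66.3 CPM with DMSO, and fell by 1.04 on the log2 scale (SE 0.11, edgeR adjusted p = 2.09e-10). MASTL overlaps the gene YME1L1 on the opposite strand by 443 bases. YME1L1 itself had 3848 to 5227 counts in DU145 libraries and 763 to 1006 in C4-2 libraries. The C4-2 counting used no strand setting and no setting that counts a read for more than 1 gene, and that of the DU145 counting is not stated, so reads of this stretch cannot be assigned with certainty.

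Of the kinases of the centriole and centrosome cycle, NEK2 passed in DU145 and PLK4 did not. NEK2 (ENSG00000117650, chr1:211658657-211675630, minus strand), which dissolves the link between centrosomes, had 111, 108 and 101 CPM in DU145 with palbociclib, against 79.5, 81.9 and 79.6 CPM with DMSO. Its groups were apart, with a log2 fold change of 0.44 (SE 0.07, edgeR adjusted p = 2.64e-05). PLK4 (ENSG00000142731, chr4:127880861-127899195, plus strand), the kinase that licenses a new centriole, had 34.0, 37.3 and 27.0 CPM in DU145 with palbociclib, against 33.6, 39.1 and 32.2 CPM with DMSO. Its groups overlapped and the estimate of -0.07 did not pass (SE 0.11, edgeR adjusted p = 0.606). An approximate 95% interval of the log2 fold change, 1.96 SE on each side by the normal distribution, ran from -0.28 to 0.14.

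Both fell in C4-2. NEK2 had 30.8, 28.7 and 31.7 CPM with palbociclib, against 78.5 and 65.0 CPM with DMSO (log2 -1.29, SE 0.11, edgeR adjusted p = 3.29e-13). PLK4 had 34.3, 32.6 and 34.9 CPM with palbociclib, against 87.1 and 81.9 CPM with DMSO (log2 -1.36, SE 0.10, edgeR adjusted p = 2.19e-15). Neither pair of groups overlapped.

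AURKB (ENSG00000178999, chr17:8204733-8210600, minus strand), the Aurora kinase of the chromosomal passenger complex, showed the largest fall of the 10 in C4-2. It had 16.3, 19.5 and 18.9 CPM there with palbociclib, from 47 to 64 counts, against 64.2 and 73.6 CPM with DMSO. The level was 3.88-fold lower (log2 -1.96, SE 0.12, edgeR adjusted p = 1.93e-17), at percentile 0.5 of all tested genes. In DU145 it had 115, 111 and 110.0 CPM with palbociclib, against 96.8, 90.3 and 95.6 CPM with DMSO, groups that did not overlap (log2 0.27, SE 0.07, edgeR adjusted p = 0.002).

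Of the 3 checkpoint genes, BUB1B alone passed in DU145, and all 3 fell in C4-2. BUB1B (ENSG00000156970, chr15:40161023-40221136, plus strand), known as BubR1, which binds CDC20 within the mitotic checkpoint complex, had 84.1, 84.5 and 69.7 CPM in DU145 with palbociclib, against 69.4, 68.5 and 60.4 CPM with DMSO. Palbociclib replicate 3 lay just above the highest DMSO library, and the log2 fold change was 0.29 (SE 0.08, edgeR adjusted p = 0.00648). In C4-2 it had 52.6, 53.3 and 53.0 CPM with palbociclib, against 146 and 145 CPM with DMSO (log2 -1.50, SE 0.08, edgeR adjusted p = 2.78e-20). The read-through gene BUB1B-PAK6 on the same strand overlaps it by 3709 bases and had 0 counts in all 11 libraries.

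BUB1 (ENSG00000169679, chr2:110637698-110678114, minus strand), which recruits checkpoint proteins to kinetochores, had 162, 159 and 141 CPM in DU145 with palbociclib, against 144, 149 and 137 CPM with DMSO. The ranges overlapped and the log2 fold change of 0.13 did not pass (SE 0.07, edgeR adjusted p = 0.115). In C4-2 BUB1 had 107, 121 and 113 CPM with palbociclib, against 211 and 221 CPM with DMSO, a fall of 1.96-fold (log2 -0.97, SE 0.06, edgeR adjusted p = 3.07e-17).

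TTK (ENSG00000112742, chr6:80003887-80042527, plus strand), known as MPS1, the kinase that sets off the checkpoint signal, had 34.8, 33.1 and 24.6 CPM in DU145 with palbociclib, against 32.6, 35.4 and 30.1 CPM with DMSO. The groups overlapped and the estimate of -0.06 did not pass (SE 0.11, edgeR adjusted p = 0.66), with an approximate 95% interval (1.96 SE on each side) from -0.28 to 0.16. In C4-2 it had 64.0, 50.2 and 51.8 CPM with palbociclib, against 111 and 99.8 CPM with DMSO (log2 -0.98, SE 0.09, edgeR adjusted p = 3.27e-12).

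The CPM ranges of palbociclib and DMSO libraries did not overlap for 5 of the 10 members in DU145, all higher with palbociclib, and for 10 of 10 in C4-2, all lower. Over all tested genes in DU145, 29.4% were apart with higher values and 33.4% with lower values, and in C4-2 35.8% were apart with higher values and 30.3% with lower values.

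**Figure D2:**
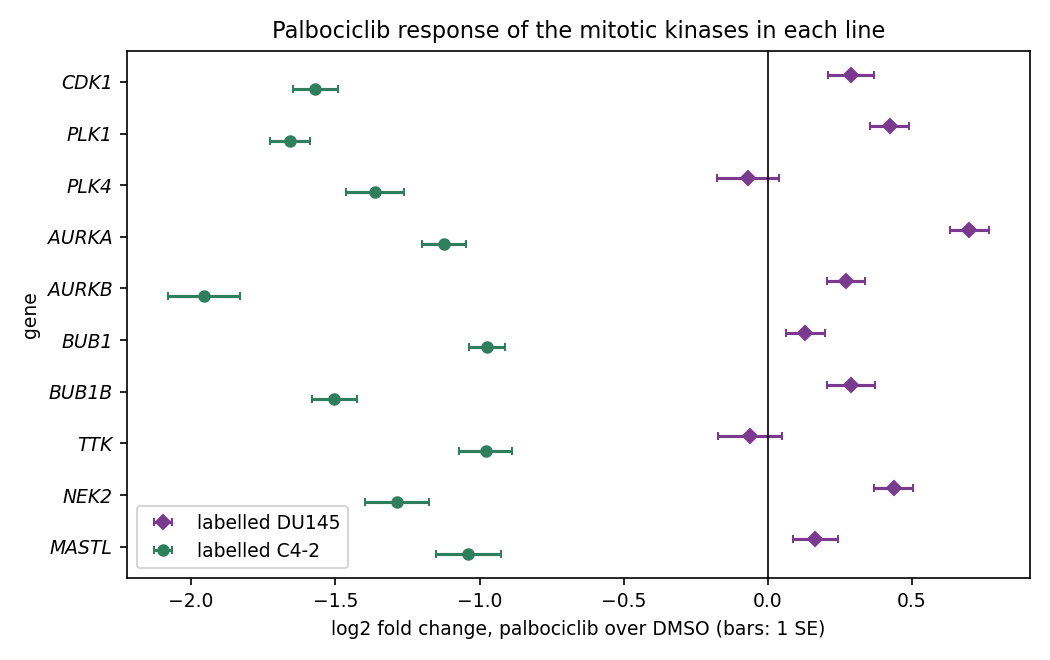
Log2 fold change of palbociclib over DMSO for each of the 10 kinases in DU145 and in C4-2. Bars are the SE on each side from the edgeR fits, not 95% intervals. C4-2 estimates lie between -1.96 and -0.97, and DU145 estimates between -0.07 and 0.70.

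Whether the response itself differed between the lines was tested with an interaction term in a joint edgeR fit of the genes in both tables, as the log2 fold change in DU145 minus that in C4-2. All 10 kinases passed, each with the higher change in DU145, whereas 18.4% of the 18139 tested genes were called in that direction and 33.4% in either. The differences ran from 2.26 for AURKB (SE 0.14, edgeR adjusted p = 4.41e-14) and 2.12 for PLK1 (SE 0.10, edgeR adjusted p = 1.57e-16) to 0.95 for TTK (SE 0.17, edgeR adjusted p = 2.78e-05). For TTK and PLK4 the difference came with a DU145 estimate near 0, and for AURKA (difference 1.85) with changes past the threshold in opposite directions. The lines were counted in separate tables with different depth, and line and table cannot be told apart.

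Levels were set between genes per length, as TPM (counts scaled by gene length and then to a common library total) with the gene lengths of the DU145 table used for both tables. In DU145 with palbociclib, CDK1 (245 ± 24.1 TPM) and AURKA (223 ± 15.1 TPM) came first, and TTK (24.4 ± 4.28 TPM) and PLK4 (26.5 ± 4.17 TPM) last (mean ± SD, n = 3). With DMSO, CDK1 (197 ± 18.3 TPM) was followed by AURKB (147 ± 6.21 TPM) and AURKA (134 ± 2.92 TPM), and PLK4 (27.2 ± 2.64 TPM) and TTK (24.9 ± 1.79 TPM) came last again (n = 3). With these lengths AURKA stood above AURKB in all palbociclib libraries of DU145 and below it in all its DMSO libraries. The order of these genes rests on the lengths. With the GENCODE v29 lengths of coding transcripts, an alternative chosen after seeing the data, AURKA had rank 4, behind CDK1, PLK1 and AURKB with palbociclib and behind CDK1, AURKB and PLK1 with DMSO, and so below AURKB by mean level in both. With the table's lengths, neighbours whose ranges overlapped were CDK1 with AURKA, BUB1B with MASTL and PLK4 with TTK with palbociclib, and MASTL with BUB1B and PLK4 with TTK with DMSO.

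The order in C4-2 was another one. AURKA led with palbociclib (121 ± 11.6 TPM, n = 3), followed by BUB1 (87.1 ± 5.45 TPM) and CDK1 (69.1 ± 6.91 TPM), and AURKB (37.6 ± 3.65 TPM) and PLK4 (35.0 ± 1.18 TPM) came last. With DMSO the first 4 were AURKA (243 and 258 TPM in the 2 libraries), PLK1 (194 and 206 TPM), CDK1 (191 and 198 TPM) and BUB1 (163 ± 4.72 TPM, n = 2), and MASTL came last (79.2 ± 5.23 TPM). AURKB was ninth of 10 with palbociclib and sixth with DMSO, but its range overlapped those of its neighbours MASTL and PLK4 with palbociclib and that of BUB1B with DMSO, and with the GENCODE lengths it had rank 7 with palbociclib and rank 5 with DMSO. Other neighbours that overlapped were CDK1 with PLK1, PLK1 with TTK, TTK with BUB1B and NEK2 with MASTL with palbociclib, and PLK1 with CDK1 and NEK2 with TTK with DMSO. With the GENCODE lengths PLK1 led in C4-2 with DMSO, ahead of CDK1 and AURKA.

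The makeup of the set changed as well, as each gene's share of the summed TPM of the 10 in a library. AURKA took 18.1% to 18.6% of it in DU145 with palbociclib, against 14.1% to 14.8% with DMSO, and 18.1% to 20.7% in C4-2 with palbociclib, against 16.7% to 17.4% with DMSO. Its share was therefore higher with palbociclib, without overlap, in both lines. BUB1 took 7.52% to 7.78% in DU145 with palbociclib, against 8.80% to 9.04% with DMSO, but 13.4% to 14.7% in C4-2 with palbociclib, against 11.1% ± 0.178 with DMSO (SD, n = 2). TTK and MASTL did the same as BUB1. TTK took 1.73% to 2.20% in DU145 with palbociclib, against 2.56% to 2.82% with DMSO, and 8.06% to 10.5% in C4-2 with palbociclib, against 6.67% to 7.56% with DMSO. The share of AURKB in C4-2 was 5.47% to 6.56% with palbociclib, against 8.96% to 10.1% with DMSO. With the GENCODE lengths each of the differences in share given here kept its direction and its lack of overlap. Shares within a set are tied to each other, and these were not tested.

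**Figure D3:**
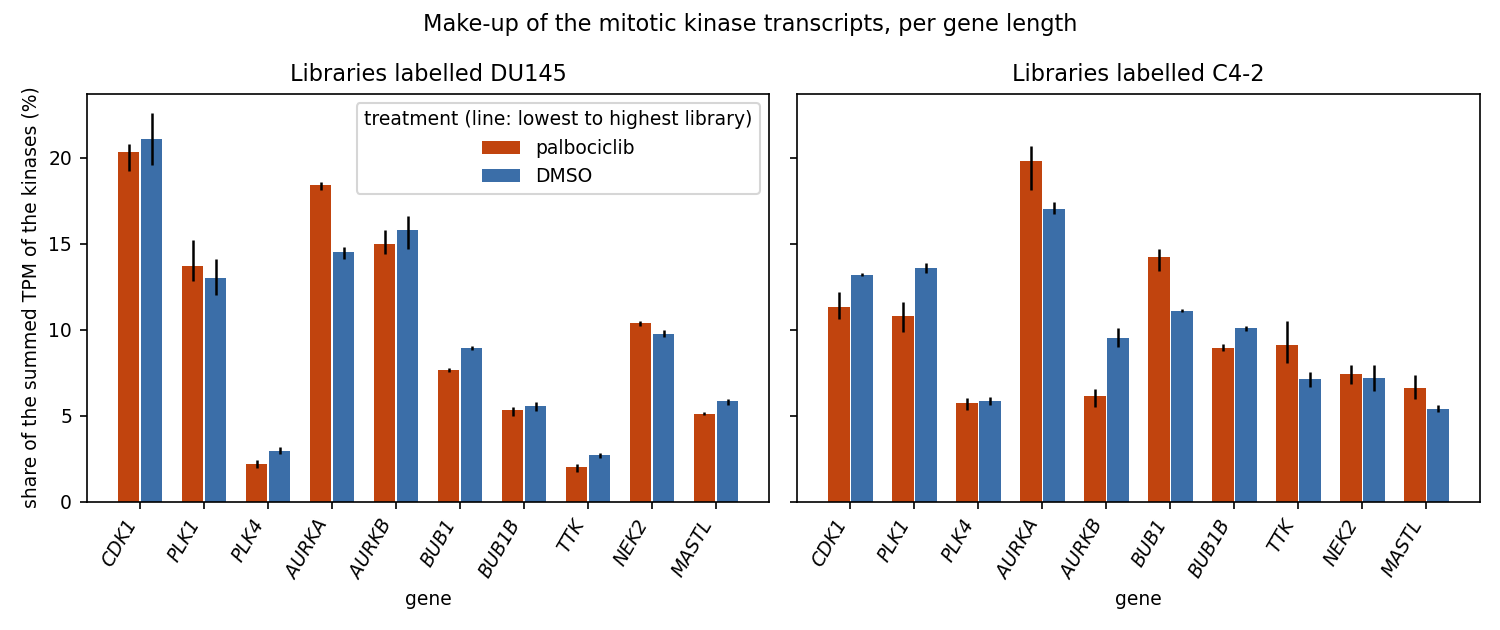
Mean share of each kinase in the summed TPM of the 10, in percent, by group, with lines from the lowest to the highest library. DU145 is on the left, C4-2 on the right and palbociclib left of DMSO. AURKA is higher with palbociclib in both lines, and BUB1 is lower with palbociclib in DU145 and higher in C4-2.

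In DU145 the libraries numbered 3 stood apart from those numbered 1 and 2. The chi-square per degree of freedom between libraries of a group, which counting noise alone puts at 1, was 5.41 to 8.34 for pairs that held replicate 3, and 2.36 and 2.37 for pairs without it. Pairs within a group of C4-2 gave 1.14 to 1.18, close to counting noise alone, and the C4-2 p-values rest on that spread. Among the members in DU145, TTK in palbociclib replicate 3 lay 0.46 below the mean of replicates 1 and 2 on the log2 scale. PLK4 lay 0.40 below and CDK1 0.26 below, while PLK1 lay 0.09 above. In DMSO replicate 3, TTK lay 0.17 below, PLK4 0.18 below, CDK1 0.24 below and PLK1 0.10 above. The median gene moved by -0.015 with palbociclib and -0.008 with DMSO. Without palbociclib replicate 3, BUB1 (log2 fold change 0.19, edgeR adjusted p = 0.0129) and MASTL (0.22, edgeR adjusted p = 0.0148) passed in DU145, so that 8 of the 10 rose. The same 8 passed without both libraries numbered 3, with BUB1 at 0.16 (edgeR adjusted p = 0.00712) and MASTL at 0.17 (edgeR adjusted p = 0.0207).

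**Figure D4:**
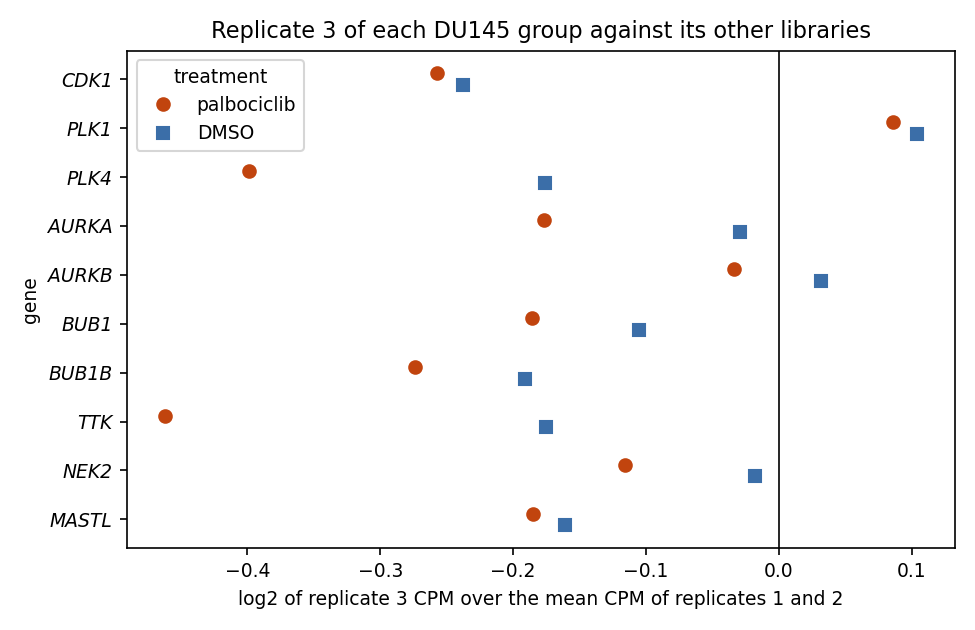
Log2 difference of replicate 3 from the mean of replicates 1 and 2 in DU145 for each kinase, with palbociclib and DMSO. TTK and PLK4 lie lowest with palbociclib, and PLK1 lies above 0 in both treatments.

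Of 21 activators and scaffolds of these kinases, 12 rose and 2 fell in DU145 (median log2 fold change 0.20), and 1 rose and 18 fell in C4-2 (median -1.07). Over all tested genes, 28.8% were called higher and 29.2% lower in DU145, and 25.2% higher and 26.6% lower in C4-2. The 2 that fell in DU145 were CEP192 and STIL, named after their values were seen, and none fell without DMSO replicate 1 or without palbociclib replicate 2 (0 at edgeR adjusted p below 0.05). Of these 2, CEP192 alone also lost its call without DMSO replicate 2 (edgeR adjusted p = 0.0504) or palbociclib replicate 3 (edgeR adjusted p = 0.123). Among the 12 risers, ARPP19, BORA and BUB3 lost their calls without DMSO replicate 1 (edgeR adjusted p = 0.111, 0.0905 and 0.0755). They also lost them without palbociclib replicate 1 or palbociclib replicate 2. In DU145 the smallest adjusted p-values were those of CKS2, a small subunit of CDK complexes (log2 1.08), TPX2, the activator of AURKA (0.76), CDC25A, a phosphatase that activates CDKs (0.89), INCENP, the scaffold of AURKB (0.66), and CCNB1, the cyclin of CDK1 (0.53). In C4-2 they were those of TPX2 (-1.28), CCNA2 (-1.68), the passenger protein CDCA8 (-1.74), CCNB1 (-1.25) and the kinetochore scaffold KNL1 (-1.35). The 1 riser in C4-2 was ARPP19, a substrate of MASTL (log2 0.30, SE 0.06, edgeR adjusted p = 3.12e-05), named after its value was seen. ARPP19 was also among the risers in DU145 (0.18, edgeR adjusted p = 0.049). Its difference between the lines did not pass (-0.09, SE 0.11, edgeR adjusted p = 0.606).

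Of the 17 spindle checkpoint genes that are not kinases, 4 rose and 3 fell in DU145 (median -0.09, all 17 tested), and none rose and 13 fell in C4-2 (median -1.10, 15 tested). The shares over all tested genes were 28.8% higher and 29.2% lower in DU145, and 25.2% and 26.6% in C4-2. The DU145 counts rested on single libraries: without DMSO replicate 3, 2 rose and 6 fell, without palbociclib replicate 2, 2 rose and 3 fell, and without both libraries numbered 3, 4 rose and 7 fell. CDC20, the activator of the anaphase-promoting complex that the checkpoint restrains, rose by 0.33 in DU145 and fell by 1.76 in C4-2 on the log2 scale. KNTC1, a subunit of the complex that brings dynein to kinetochores, had a log2 fold change of -1.15 in DU145 and -1.30 in C4-2, and the difference between the lines did not pass (0.18, SE 0.15, edgeR adjusted p = 0.383). SPC24 (-0.41) and SPDL1 (-0.33) fell and MAD2L1BP (0.71) rose in DU145. KNL1 (-1.35), SPDL1 (-1.29), TRIP13 (-1.10) and MAD2L1 (-1.09) fell in C4-2. The count of 0 rising in C4-2 was also 0 at an unadjusted edgeR p below 0.05 and with DESeq2. KNL1 and BUB3 stand in both this list and the previous one.

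Kinases and phosphatases that oppose the 10 were mixed. Of 16, 5 rose and 3 fell in DU145 (median 0.10), and 2 rose and 6 fell in C4-2 (median -0.17). Beside them, 28.8% of all tested genes were called higher and 29.2% lower in DU145, and 25.2% and 26.6% in C4-2. WEE1, which inhibits CDK1 by phosphorylation, fell in both lines, by 0.63 in DU145 (SE 0.07, edgeR adjusted p = 3.47e-07) and by 1.17 in C4-2 (SE 0.10, edgeR adjusted p = 3.15e-13). PKMYT1, the other inhibitory kinase of CDK1, did not pass in DU145 (0.13, SE 0.09, edgeR adjusted p = 0.225) and fell by 2.34 in C4-2 (SE 0.14, edgeR adjusted p = 1.01e-18). PPP2R1A, the scaffold of PP2A, rose in DU145 (0.39) and fell in C4-2 (-0.63), and the same held for PPP1CA, a catalytic subunit of PP1 (0.29 and -0.56). PPP2CA (0.44) rose in DU145 and PPP1CB (0.31) rose in C4-2. PPP2R2A rose in both lines, by 0.36 in DU145 and by 0.29 in C4-2 (SE 0.07, edgeR adjusted p = 0.000855). The C4-2 call of PPP2R2A was lost in the joint fit (edgeR adjusted p = 0.0516). Its difference between the lines did not pass (0.10, SE 0.11, edgeR adjusted p = 0.552).

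Of 14 genes of transcription control, 4 rose and 5 fell in DU145 (median 0.002), and none rose and 9 fell in C4-2 (median -0.53, 13 tested). All tested genes gave 28.8% higher and 29.2% lower in DU145, and 25.2% and 26.6% in C4-2. FOXM1, a transcription factor of mitotic genes, rose in DU145 (0.26, SE 0.07, edgeR adjusted p = 0.00307) and fell in C4-2 (-0.92, SE 0.07, edgeR adjusted p = 1.54e-15). E2F1 fell in both, by 0.45 in DU145 and 2.18 in C4-2. LIN52, a core subunit of DREAM, rose by 0.93 in DU145, where NFYB (-0.34) fell. E2F4 rose in DU145 (0.31) and fell in C4-2 (-0.52). LIN9 (0.25) and NFYA (-0.23), also called in DU145, lost their calls without DMSO replicate 1 (edgeR adjusted p = 0.0962 and 0.104). The count of 0 rising in C4-2 was also 0 at an unadjusted p below 0.05 in that edgeR fit, and DESeq2 called 0 higher there. MYBL2 (-1.67) and E2F8 (-3.25) fell in C4-2, and TFDP1 fell in both lines (-0.21 in DU145, -0.71 in C4-2).

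**Figure D5:**
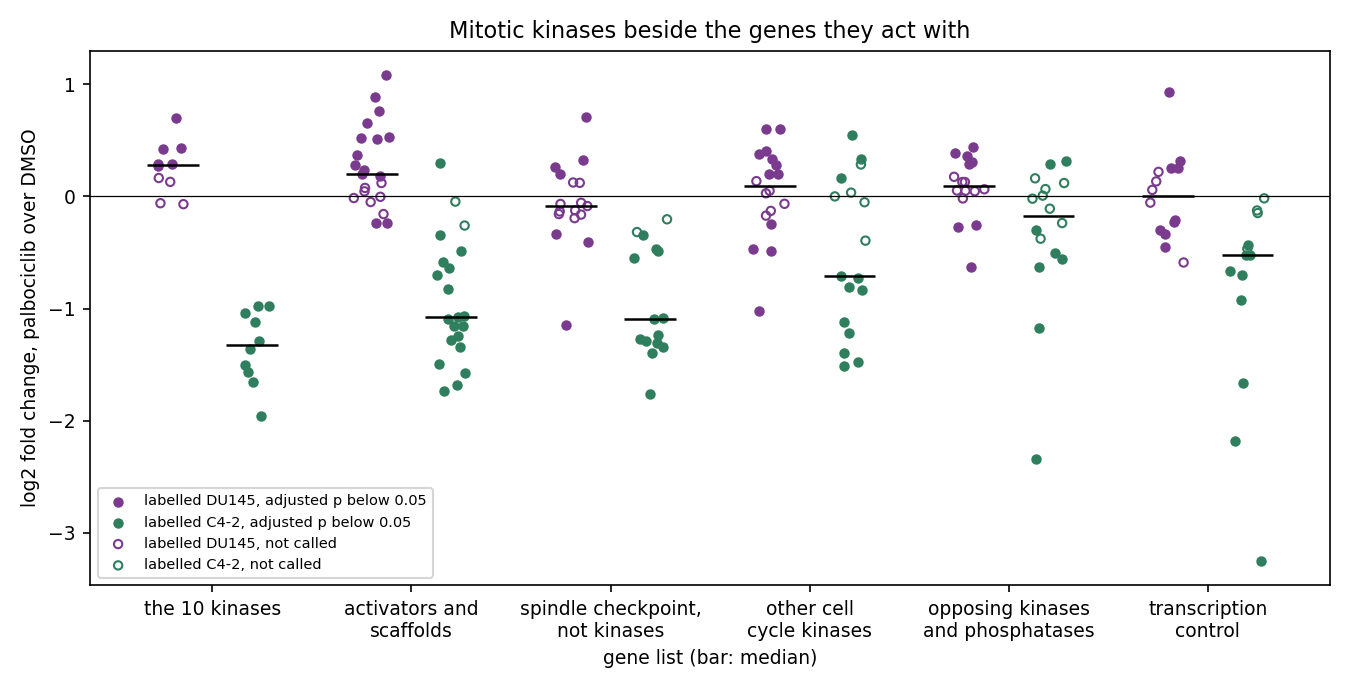
Log2 fold change of palbociclib over DMSO for the genes of each list and for the 10 kinases, DU145 on the left and C4-2 on the right, 1 point per tested gene. The 10 kinases have medians of 0.28 in DU145 and -1.32 in C4-2, and WEE1 and KNTC1 lie below 0 in both.

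The genes with the pattern most like the 10 were sought among genes with a mean of at least 5 CPM in both tables. These numbered 9526 with the 10 kinases, which were left out of the search. The measure was the distance of their 2 log2 fold changes from the medians of the 10 (0.28 in DU145, -1.32 in C4-2). The nearest were CDCA4 (0.23 in DU145, -1.29 in C4-2, distance 0.059), TOMM40 (0.31 and -1.27, distance 0.059), RACGAP1 (0.29 and -1.26, distance 0.066), NCAPD2 (0.22 and -1.37, distance 0.081) and PTBP1 (0.26 and -1.25, distance 0.082). RACGAP1 is part of the centralspindlin complex of cytokinesis, NCAPD2 is a condensin subunit, TOMM40 forms the import pore of mitochondria and PTBP1 is a splicing factor. The measure rests on 2 fold changes a gene, from 11 libraries.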

How the data were processed

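The authors deposited raw counts of reads per gene, 1 table per line. Per the file headers, the C4-2 counts were made by featureCounts 2.0.1 from read pairs on exons (Ensembl 107), without a strand setting. The sources used here do not give the counter used for DU145. The build is hg38, per the submitters' processing notes, and per the labels' protocols a directional kit was used. An all-zero library was left out, and no column of an unmapped sample was found (0).

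Tests used edgeR 4.0.16 (R 4.3.3) on the counts, with filterByExpr, TMM and quasi-likelihood fits for each line, and a joint fit of genes in both tables for the interaction. CPM used library totals. TPM used the gene lengths of the DU145 table for both lines, in place of a length from each table, because the C4-2 table holds none. The fits were tested on simulated data. Other scalings, filters, DESeq2 1.42.0, a replicate block and left-out libraries were alternatives. Depth gives a limit of 0.18 to 0.186 CPM in DU145 and 0.86 to 1.15 CPM in C4-2 for a count of 0 (3 counts), for counting error only.

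The rule for the members names genes and uses no measured value, but members and lists were proposed and chosen with earlier results of these data known. All 10 members were named, and from each list up to 5 called genes per line with the smallest adjusted p, plus the 5 genes nearest in pattern and other list members as values.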

Additional observations from a re-analysis of the deposited data

Results flagged for a closer look

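The change with palbociclib differed between the lines for all 10 kinases, by the interaction term of the joint edgeR fit (DU145 log2 fold change minus C4-2 log2 fold change, edgeR adjusted p from 1.57e-16 to 2.78e-05). The difference was 2.26 for AURKB, 2.12 for PLK1, 1.89 for CDK1, 1.85 for AURKA, 1.83 for BUB1B and 1.76 for NEK2, the 6 members that rose in DU145. It was 1.33 for PLK4, 1.24 for MASTL, 1.14 for BUB1 and 0.95 for TTK, the 4 that did not pass there. All 10 were tested in 6 DU145 libraries and 5 C4-2 libraries.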

How the results depend on the processing

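The 10 members kept their direction and their side of the threshold in C4-2 and in the interaction under every alternative run (120 and 180 values), and in DU145 for 134 of 140 values. The 6 exceptions were BUB1 and MASTL, which passed in DU145 with the replicate block and without palbociclib replicate 3 or both libraries numbered 3. With the block, BUB1 was at 0.13 (edgeR adjusted p = 0.0106) and MASTL at 0.16 (edgeR adjusted p = 0.00992), which made 8 members called higher. Genes called with the block numbered 9953 in DU145, 5706 in C4-2 and 6007 for the interaction. The block fits of C4-2 and of the interaction also left out C4-2 palbociclib replicate 3, whose number has no filled DMSO library. Without that library and without the block, 5654 genes were called in C4-2 and 5482 for the interaction. Same-numbered libraries deviated together with correlations of 0.02, 0.036 and 0.128 in DU145 and 0.007 and 0.029 in C4-2, not every one over 0.1, so the numbers were not taken to pair them, and DU145 palbociclib replicate 1 correlated best with DMSO replicate 2. Without both DU145 libraries numbered 3, 8 members were called higher as well. Leaving out each library gave 6 to 8 members called higher in DU145, 10 called lower in C4-2 (10 to 10) and 10 called for the interaction, and 8112 to 9054, 5035 to 5751 and 4743 to 6249 genes called. In C4-2, DESeq2 called 3793 genes in place of 6184, and the cause was not tested. For the interaction, 3337 genes were called higher and 2727 lower, against 2759 and 3291 with library totals, which moved the median of all genes to -0.116. With GENCODE v29 coding transcript lengths, an alternative chosen after seeing the data, 8 of 10 members kept their rank by TPM in each treatment of DU145 and 5 of 10 in each treatment of C4-2; AURKA had rank 4 in both treatments of DU145 and PLK1 rank 1 in C4-2 with DMSO. Of the counts over the lists, 415 stayed within 1.5 times and 25 moved, 13 of them for the interaction. The other 12 were activators falling in DU145 (2, against 0 or 1 with DESeq2 or without DMSO replicate 1 or 2 or palbociclib replicate 2 or 3), spindle checkpoint genes falling (3, against 6 with the block or without DMSO replicate 3 and 7 without both libraries numbered 3) and rising (4, against 2 without DMSO replicate 3 or palbociclib replicate 2) in DU145, other cell cycle kinases rising in DU145 (8, against 5 without DMSO replicate 1), and opposing genes rising in C4-2 (2, against 1 in the joint fit). The depth of the C4-2 libraries limits genes near its limit of 0.86 to 1.15 CPM, below every member's level.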

Other observations

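The list of other cell cycle kinases holds 8 genes of the PLK, NEK and Aurora families. PLK2, a polo-like kinase of the stress response, fell by 0.73 in C4-2 (SE 0.05, edgeR adjusted p = 2.27e-15). Its log2 fold change of -0.25 in DU145 passed (SE 0.10, edgeR adjusted p = 0.0361), but not without DMSO replicate 2 (edgeR adjusted p = 0.0711), DMSO replicate 3 (edgeR adjusted p = 0.147) or palbociclib replicate 2 (edgeR adjusted p = 0.197), nor without both libraries numbered 3 (edgeR adjusted p = 0.0568) or with DESeq2 (adjusted p = 0.0581). PLK3 rose by 0.60 in DU145 (SE 0.11, edgeR adjusted p = 0.000114) and had -0.39 in C4-2, which did not pass (SE 0.28, edgeR adjusted p = 0.247). NEK1, a kinase of cilia and DNA repair, averaged 5.73 ± 0.834 CPM in DU145 with palbociclib and 11.8 ± 1.90 CPM with DMSO (SD, n = 3 each), a log2 fold change of -1.02 (SE 0.15, edgeR adjusted p = 1.57e-05), and did not pass in C4-2 (edgeR adjusted p = 0.998). NEK9, which acts upstream of NEK6 and NEK7, rose in both lines, by 0.20 in DU145 (SE 0.06, edgeR adjusted p = 0.00816) and 0.55 in C4-2 (SE 0.06, edgeR adjusted p = 1.50e-09), with the DU145 call lost without DMSO replicate 1 (edgeR adjusted p = 0.0508). NEK6 and NEK7 passed in neither line, with edgeR adjusted p of 0.574 and 0.201 in DU145 and of 0.734 and 0.651 in C4-2. AURKC, the Aurora kinase of germ cells, had at most 5 counts in a library, and PLK5 at most 4.

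Of 20 other kinases of the cell cycle, 8 rose and 4 fell in DU145 (median 0.09, 18 tested), and 5 rose there without DMSO replicate 1. In C4-2, 3 rose and 9 fell (median -0.71, 17 tested). Over all tested genes, 28.8% were called higher and 29.2% lower in DU145, and 25.2% and 26.6% in C4-2. CIT, the citron kinase of cytokinesis, fell by 0.47 in DU145 and 1.47 in C4-2 on the log2 scale, and PBK fell by 0.48 in DU145 and 1.51 in C4-2. CDK2, the partner of cyclins E and A, rose by 0.41 in DU145 and fell by 1.22 in C4-2. CDK7, the CDK-activating kinase, rose by 0.60 in DU145 and was not tested in C4-2, where it did not pass the filter on low counts. MELK rose by 0.34 in DU145 and fell by 0.81 in C4-2.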
